A study of Arabidopsis thaliana with 20 samples.

Results

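The SnRK2 family of Arabidopsis thaliana comprises 10 protein kinases, SnRK2.1 to SnRK2.10, and their transcripts were followed in whole leaves and in stomata-enriched epidermis with and without drought. The members were chosen by locus: a probe belonged to the family when the transcript it was designed for maps to 1 of the 10 SnRK2 genes. In this way 12 of the 43603 probes on the array were assigned, 1 for each gene and a second for SnRK2.1 and SnRK2.8. Where a gene had 2 probes the one with the higher mean stands for it and the other is given beside it. All 10 genes passed the filter on dim probes (in 1 or more groups each array of the group had to lie well above background). On 20 of 20 arrays 9 of them lay well above background, and SnRK2.9 did so on 19.

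SnRK2 kinases are plant relatives of the yeast kinase SNF1 and act in the response to water loss. In the absence of abscisic acid (ABA) clade A protein phosphatases 2C keep the ABA-responsive members dephosphorylated and inactive. ABA bound to a PYR/PYL receptor blocks the phosphatase, Raf-like kinases can then phosphorylate the SnRK2 protein, and the active kinase phosphorylates transcription factors of the ABF/AREB group and membrane proteins. Members fall into subclasses. Subclass III (SnRK2.2, SnRK2.3 and SnRK2.6) is strongly activated by ABA, and SnRK2.6, also called OST1, acts in guard cells, where it phosphorylates the anion channel SLAC1 during stomatal closure. Subclass II (here SnRK2.7 and SnRK2.8) is activated weakly by ABA. Subclass I (SnRK2.1, SnRK2.4, SnRK2.5, SnRK2.9 and SnRK2.10) is not activated by ABA, and its members other than SnRK2.9 are activated by osmotic stress. These activities are set on the protein, whereas the arrays measured transcripts only.

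The study hybridised 20 single-colour Agilent arrays, 1 per sample, in 8 groups formed by tissue (leaf or stomata), genotype (Col-0 or bam1) and condition (control or drought). In leaves, control Col-0, control bam1 and droughted bam1 plants had 3 arrays each and droughted Col-0 plants 2. In stomata, control Col-0 plants had 3 arrays and the other groups 2 each. The plants were labelled as 5 weeks old, drought meant 5 d of mild water shortage, controls were watered, and each sample pooled the material of several plants. The bam1 plants are a single T-DNA line in BAM1, which encodes a beta-amylase, in the Col-0 background, so an effect of that line other than the loss of BAM1 cannot be told apart. "Stomata" here means epidermal fragments kept after blending leaves freed of their large veins, not sorted guard cells.

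All arrays passed 63.2 to 75.4% of spots as well above background and none held a saturated spot. Replicates correlated at 0.979 to 0.987, and arrays of different groups from the same tissue at 0.969 to 0.987. The label check was the BAM1 signal, on the log2 scale. In Col-0 it was 10.90 to 13.97 on all arrays but the one labelled stomata Col-0 drought replicate 2, where it was 7.81. In bam1 it was 6.45 to 8.24 on all arrays but stomata bam1 control replicate 2, where it was 9.71. These 2 are the arrays called in doubt below. Where leaving out either of them ended a call of a member or moved a printed member difference of over 0.2 by over 1.5 times, the value without it is given beside it. For genes other than the members no value without these arrays was taken. Separately, the sample titled stomata Col-0 drought replicate 1 had a source name that differed from its title, and the title was used. The tissue labels were checked by marker genes: all 10 guard cell markers were called higher in stomata than in leaves in all 4 comparisons, and their summed signal was 114000 to 237000 in stomata and 43300 to 59700 in leaves. Markers of the other cell types were mixed. In Col-0 control, bam1 control, Col-0 drought and bam1 drought, 5 of 8 vascular markers each were called higher in stomata and 3, 3, 2 and 2 lower. Of 6 epidermis markers 3, 4, 4 and 5 were called higher and 0 lower. Of the mesophyll markers 0, 0, 0 and 2 were called higher and 0 lower. The shares of all probes called were 53.0, 45.7, 41.3 and 47.3%. Sums of unlogged signal follow the brightest markers. The summed signal of 8 vascular markers was 233000 to 355000 in stomata and 69700 to 90300 in leaves, that of 6 epidermis markers 143000 to 271000 and 91400 to 142000, and that of 8 mesophyll markers 1120000 to 1470000 and 1230000 to 1380000. All of these markers lay well above background on every array. The part of each cell type in the member values below was not tested, and in such bulk samples a different number of cells of a type and a different amount of RNA per cell cannot be told apart.

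Signals below are log2 values after quantile normalisation, with the replicate value of each array in the order of the replicate numbers. A level is on an arbitrary scale that differs from probe to probe, so levels are compared within a gene only. Differences are log2 differences of group means ± SE from 1 limma fit over all 20 arrays. "Called" means a Benjamini-Hochberg adjusted p below 0.05 over all probes tested, 30640 to 30656 in each comparison.

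**Figure D1:**
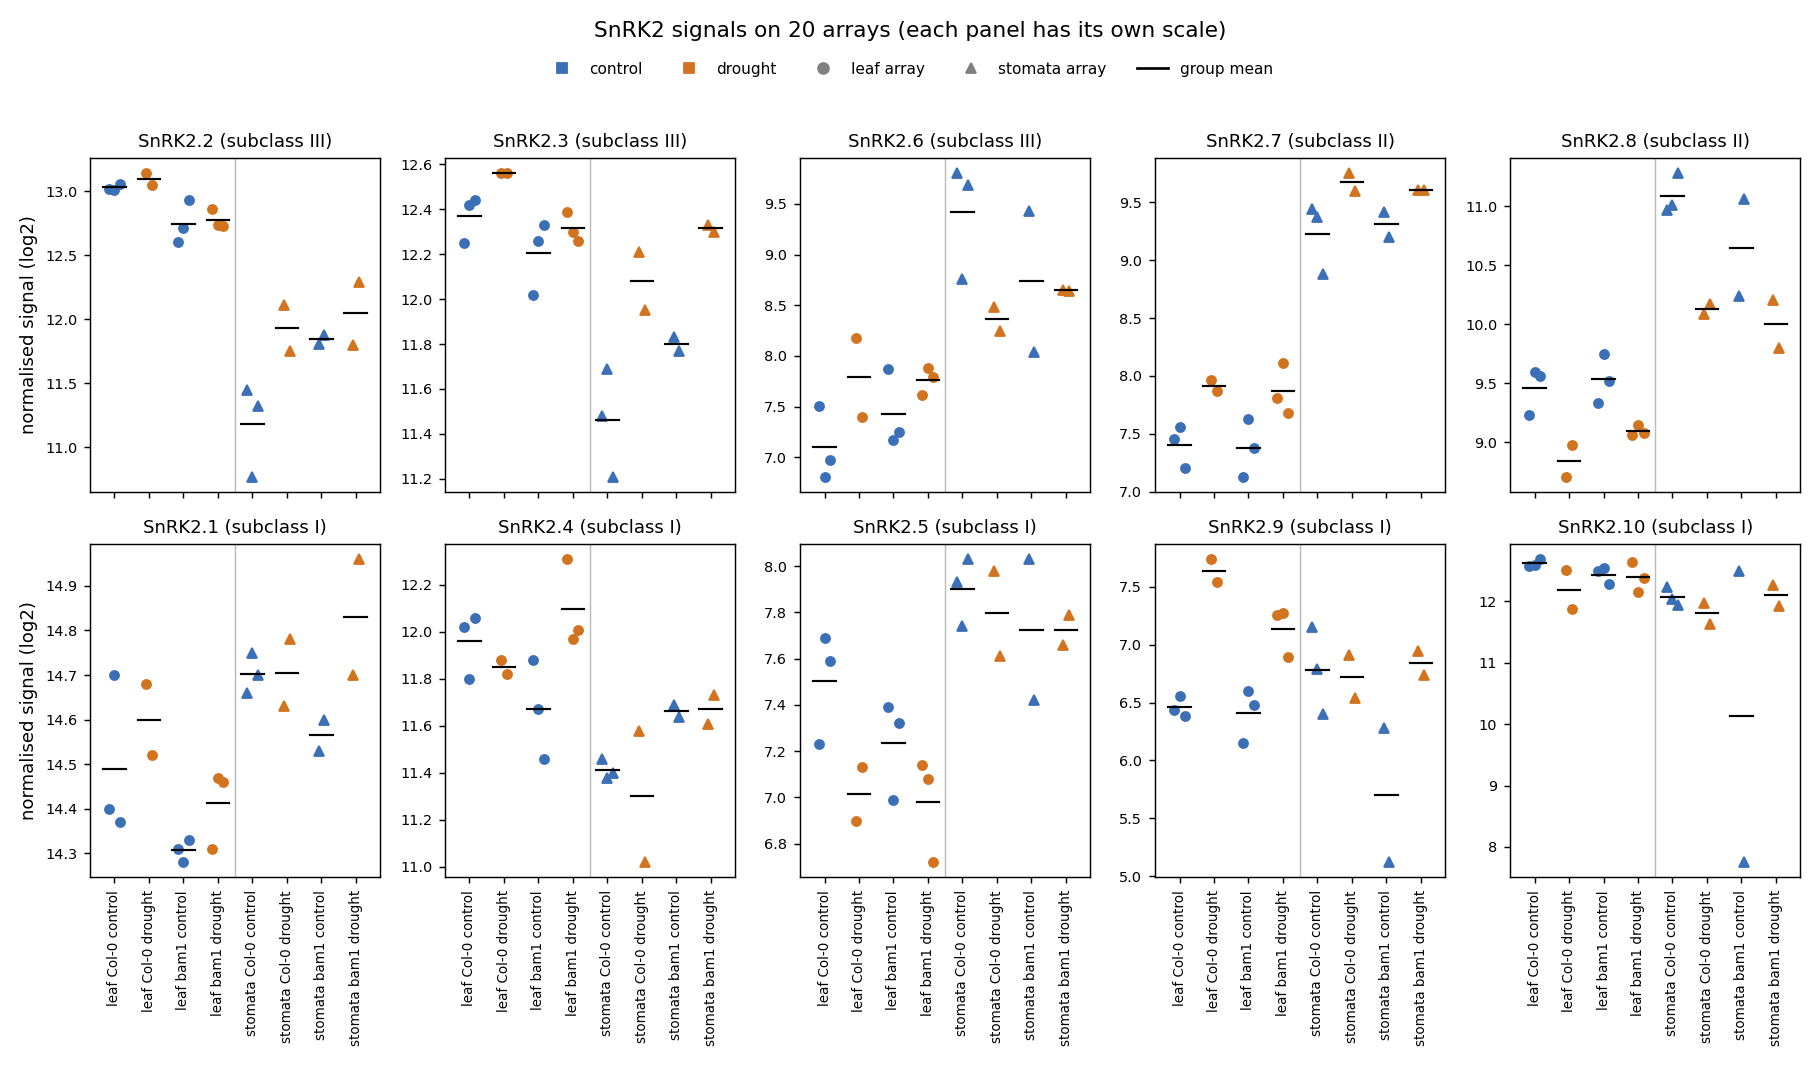
Log2 normalised signal of each SnRK2 gene (its brighter probe) on the 20 arrays, with 1 panel per gene on its own scale and the 8 groups along the horizontal axis. Circles are leaf arrays, triangles stomata arrays, blue control, orange drought, and a black line is the group mean. The leaf and stomata points of SnRK2.2, SnRK2.7 and SnRK2.8 do not overlap, and 1 stomata bam1 control array of SnRK2.10 lies at 7.75, far below the other 19.

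The first comparison asked how the kinases differed between stomata and whole leaves, in each of the 4 combinations of genotype and condition. The clearest pattern was a split inside the family. SnRK2.7 and SnRK2.8 were higher in stomata in all 4 comparisons, SnRK2.2 was lower in all 4, and SnRK2.6 was higher in both control comparisons. Of the 10 genes, 6 were called in Col-0 control (3 higher, 3 lower), where 53.0% of all probes were called. The counts were 6 in bam1 control (3 higher, 3 lower; background 45.7%), 7 in Col-0 drought (3 higher, 4 lower; background 41.3%) and 6 in bam1 drought (4 higher, 2 lower; background 47.3%). Many transcripts differed between these tissues, so a call by itself did not set a member apart from other genes. The share of all probes whose stomata and leaf arrays did not overlap was not counted. A lack of overlap between tissues is therefore given below as a description of the member only. The median difference of the 10 genes was 0.26, 0.13, -0.14 and 0.21 in that order, beside -0.03, 0.01, 0.01 and 0.05 for all probes tested. The 4 comparisons use different arrays.

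SnRK2.6 (OST1, AT4G33950) had its highest level in the stomata of well-watered Col-0 plants. The 3 arrays of that group gave 9.80, 8.76 and 9.69, and the stomata of bam1 control plants 9.43 and 8.04. Under drought the signals in stomata were 8.48 and 8.25 in Col-0 and 8.65 and 8.64 in bam1. Leaf signals were 7.51, 6.81 and 6.97 in Col-0 control and 8.18 and 7.40 in Col-0 drought, and in bam1 7.87, 7.17 and 7.25 in control and 7.61, 7.88 and 7.79 in drought. Within each combination of genotype and condition every stomata array lay above every leaf array. The difference was 2.32 ± 0.35 in Col-0 control (adjusted p = 7.2e-05, limma with Benjamini-Hochberg) and 1.31 ± 0.39 in bam1 control (adjusted p = 0.0139), a fold of 4.99 and 2.47. It was 0.58 in Col-0 drought (adjusted p = 0.3) and 0.89 in bam1 drought (adjusted p = 0.0757), neither of which passed the threshold. The bam1 control value fell to 0.61 and was no longer called without stomata bam1 control replicate 1, the array at 9.43, and rose to 2.00 (adjusted p = 0.00181) without replicate 2, the array with the high BAM1 signal. In the order of the 8 group means (9.42, 8.74, 8.65 and 8.37 in stomata Col-0 control, bam1 control, bam1 drought and Col-0 drought, then 7.79, 7.76, 7.43 and 7.10 in leaf Col-0 drought, bam1 drought, bam1 control and Col-0 control) most neighbours overlapped. The exceptions were the 2 stomata drought groups and the step from stomata to leaf.

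SnRK2.2 (AT3G50500) and SnRK2.3 (AT5G66880), the partners of SnRK2.6 in subclass III with overlapping roles in seeds and roots, ran the other way. The SnRK2.2 signal was 12.60 to 13.14 on the 11 leaf arrays and 10.77 to 12.29 on the 9 stomata arrays. Its lowest values, 11.45, 10.77 and 11.32, were those of stomata Col-0 control. The stomata-minus-leaf difference was -1.85 ± 0.17 in Col-0 control (adjusted p = 8.06e-07), -0.90 ± 0.19 in bam1 control (adjusted p = 0.00152), -1.16 ± 0.21 in Col-0 drought (adjusted p = 0.0005) and -0.73 ± 0.19 in bam1 drought (adjusted p = 0.00567). SnRK2.3 was 12.02 to 12.56 in leaves and 11.21 to 12.33 in stomata, so the tissues overlapped. It was called lower in stomata by -0.91 in Col-0 control, by -0.41 in bam1 control (adjusted p = 0.029, and 0.116 for -0.38 without stomata replicate 2) and by -0.48 in Col-0 drought (adjusted p = 0.0215), and the difference was 0.00 in bam1 drought. Subclass III therefore held both directions within the same arrays: in Col-0 control SnRK2.6 was higher and SnRK2.2 and SnRK2.3 were lower. Within the 1 slide that carried both tissues of that comparison the differences were 2.29 for SnRK2.6, -1.57 for SnRK2.2 and -0.78 for SnRK2.3.

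In subclass II both genes were higher in stomata. The SnRK2.7 (AT4G40010) signals in stomata were 9.44, 9.37 and 8.88 in Col-0 control, 9.75 and 9.60 in Col-0 drought, 9.42 and 9.20 in bam1 control, and 9.61 and 9.61 in bam1 drought. In leaves they were 7.45, 7.56 and 7.20, then 7.96 and 7.87, in Col-0, and 7.13, 7.63 and 7.38, then 7.81, 8.11 and 7.68, in bam1, control before drought. All 9 stomata arrays lay above all 11 leaf arrays, and the share of all probes that did so was not counted. The difference was 1.82 ± 0.17 in Col-0 control (adjusted p = 9.25e-07), 1.93 ± 0.19 in bam1 control (adjusted p = 3.22e-06), 1.77 ± 0.21 in Col-0 drought (adjusted p = 1.79e-05) and 1.74 ± 0.19 in bam1 drought (adjusted p = 6.47e-06). These 4 values lay within 1.74 to 1.93, and the calls held whichever array was left out.

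SnRK2.8 (AT1G78290), known for promoting growth, was 9.80 to 11.28 in stomata and 8.71 to 9.75 in leaves, again without overlap. The difference was 1.62 ± 0.19 in Col-0 control (adjusted p = 8.34e-06), 1.12 ± 0.22 in bam1 control (adjusted p = 0.000763), 1.29 ± 0.24 in Col-0 drought (adjusted p = 0.000598) and 0.90 ± 0.22 in bam1 drought (adjusted p = 0.00337). Without stomata bam1 control replicate 2 the bam1 control value was 0.71 (adjusted p = 0.0177). The second, dimmer SnRK2.8 probe gave 0.54 (adjusted p = 0.0196), 0.11, 0.22 and -0.08, of which the first alone was called. The size of the tissue difference thus depended on the probe. SnRK2.7 and SnRK2.8 were the members called higher in stomata in all 4 comparisons, beside 13.2% of all probes, and SnRK2.2 was the 1 member called lower in all 4, beside 12.7%. In bam1 drought the calls of SnRK2.8 (0.70) and SnRK2.2 (-0.49) were lost without stomata replicate 1.

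**Figure D2:**
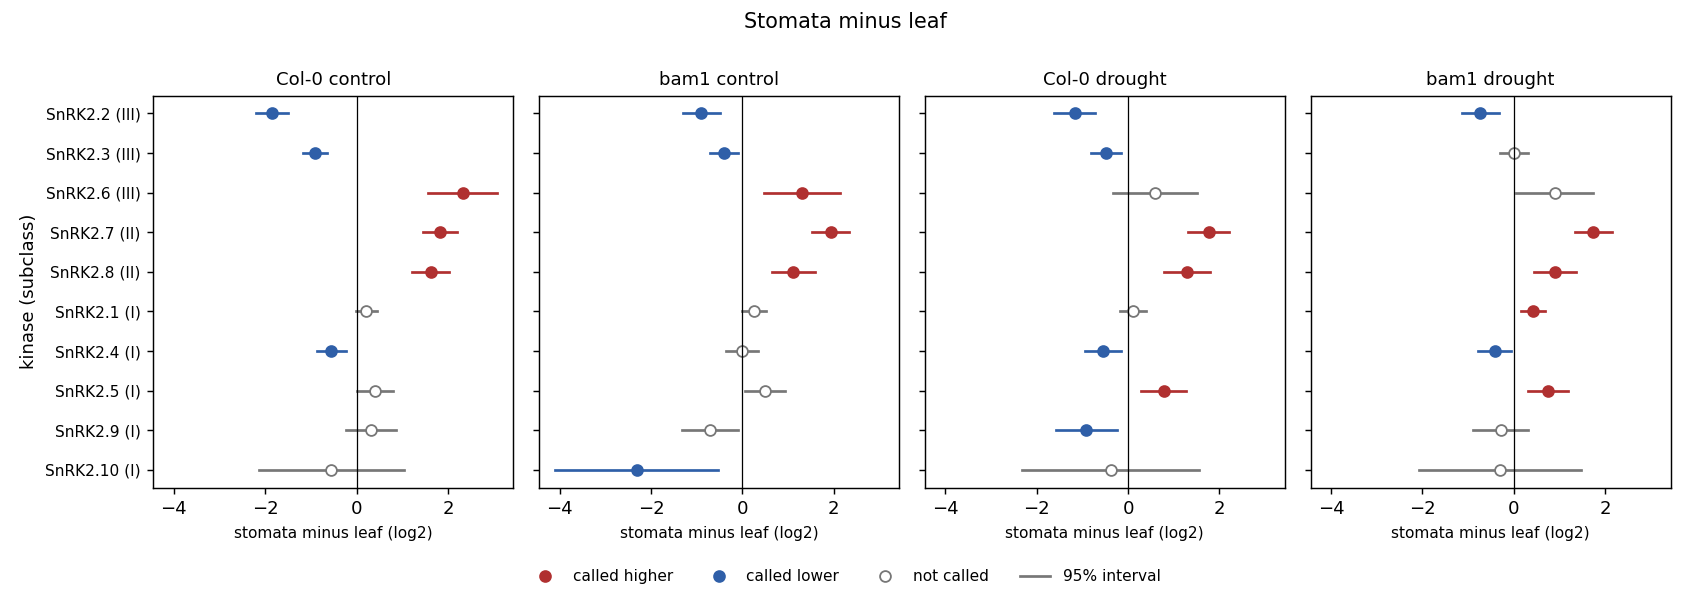
Stomata-minus-leaf log2 difference of each SnRK2 gene in the 4 combinations of genotype and condition, with points for the fitted difference and bars for its 95% interval. Filled red and blue points are called higher and lower in stomata, open points are not called, and the vertical line is 0. SnRK2.7 lies between 1.74 and 1.93 in all 4 panels, while SnRK2.6 runs from 0.58 in Col-0 drought to 2.32 in Col-0 control.

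Subclass I differed less between the tissues. SnRK2.5 (AT5G63650) was 7.42 to 8.03 in stomata and 6.72 to 7.69 in leaves, and in each combination all stomata arrays lay above all leaf arrays. The difference of 0.40 in Col-0 control and 0.49 in bam1 control did not pass the threshold (0.79 with adjusted p = 0.0164 in bam1 control without stomata replicate 2), and that of 0.78 ± 0.23 in Col-0 drought (adjusted p = 0.0135) and 0.74 ± 0.21 in bam1 drought (adjusted p = 0.00907) did. SnRK2.4 (AT1G10940), which acts in roots under salt together with SnRK2.10, was called lower in stomata by -0.55 in Col-0 control (adjusted p = 0.00611), by -0.55 in Col-0 drought (adjusted p = 0.0256) and by -0.42 in bam1 drought (adjusted p = 0.0472), and the difference was 0.00 in bam1 control. SnRK2.9 (AT2G23030), the least studied member, was called lower in stomata in Col-0 drought by -0.91 (adjusted p = 0.0292) and had differences of 0.32, -0.71 and -0.29 in Col-0 control, bam1 control and bam1 drought. Its bam1 control value was -0.13 without stomata replicate 2. The calls of SnRK2.3, SnRK2.4 and SnRK2.9 in Col-0 drought ended when the array with the contrary BAM1 signal was left out (-0.35, -0.27 and -0.72), whereas SnRK2.2, SnRK2.5, SnRK2.7 and SnRK2.8 were still called (-0.99, 0.97, 1.84 and 1.25).

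The 2 probes of SnRK2.1 (AT5G08590) gave opposite signs. The brighter probe was higher in stomata by 0.21, 0.26, 0.11 and 0.42 in Col-0 control, bam1 control, Col-0 drought and bam1 drought, of which the last was called (adjusted p = 0.0111). The other probe gave -0.40, -0.32, -0.34 and -0.26, of which the first was called lower (adjusted p = 0.0107). No direction between the tissues can be given for SnRK2.1.

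The value of SnRK2.10 (AT1G60940) in stomata bam1 control rested on 1 array. Its signal was 11.64 to 12.69 on 19 arrays and 7.75 on stomata bam1 control replicate 2, where the scanner's processed signal was 156.3 against 2859 to 15510 on the others. The other array of that group gave 12.50. This is also the bam1 array with the high BAM1 signal and the only array on which SnRK2.9 was not well above background. With it, SnRK2.10 was called lower in stomata of bam1 control by -2.31 ± 0.83 (adjusted p = 0.034). Without it the difference was 0.06. In Col-0 control, which does not use that array, the difference was -0.55, not called in the fit of all arrays (adjusted p = 0.556, limma). That non-call used an error that takes in the array at 7.75. Of 20 other settings 1 called the Col-0 control difference lower, and the settings gave -0.64 to -0.14. The array also widened the error of the SnRK2.10 comparisons. Between 2 groups the SE was 0.74 to 0.91 with it and 0.18 to 0.26 without it.

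The second comparison asked how drought changed the kinase transcripts, in leaves and in stomata of each genotype. Few members were called and the changes were mostly below 2-fold. Under drought SnRK2.9 was called higher in Col-0 leaves and in bam1 stomata, SnRK2.2 in Col-0 stomata and SnRK2.3 in the stomata of both genotypes. SnRK2.8 was called lower in Col-0 stomata. The stomata calls depended on the fit: 0 members were called there in either genotype with the slide as a block, with only the groups compared, or with the methods' t-test. In Col-0 leaves 1 of 10 members was called, and it was higher (background 14.2%). In bam1 leaves limma called 0 (background 13.5%), with 4 members at an unadjusted p below 0.05 beside 8367 of 30656 probes. The methods' t-test with its 2-fold minimum also called 0 there. In Col-0 stomata 3 were called, 2 higher and 1 lower (background 8.56%), and in bam1 stomata 2, both higher (background 12.7%). With 10 genes, 1 call corresponds to 10% of the family, so none of these counts is a result about the family as a whole. The median change of the 10 genes was 0.08, 0.11, -0.08 and 0.24, beside -0.01, 0.01, 0.02 and 0.03 for all probes.

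SnRK2.9 had the largest called change of the 10 genes under drought. In Col-0 leaves it went from 6.44, 6.56 and 6.38 to 7.74 and 7.54, a rise of 1.18 ± 0.28 (2.26-fold, adjusted p = 0.0126, limma with Benjamini-Hochberg). In bam1 leaves it went from 6.15, 6.60 and 6.48 to 7.26, 7.27 and 6.89, a difference of 0.73 (adjusted p = 0.0717). The arrays of control and drought did not overlap in either genotype. Within the 1 slide that held both conditions the difference was 1.29 in Col-0 leaves and 0.41 in bam1 leaves. In stomata the genotypes gave different values. The Col-0 arrays were 7.15, 6.79 and 6.40 in control and 6.91 and 6.54 in drought, a difference of -0.05. The bam1 arrays were 6.28 and 5.12 in control and 6.95 and 6.74 in drought, a difference of 1.15 ± 0.31 (adjusted p = 0.0258) that fell to 0.57 and was no longer called (adjusted p = 0.282) without stomata bam1 control replicate 2, where the probe was not above background. The Col-0 value was 0.14 without the array of contrary BAM1 signal. The test of the difference between genotypes in stomata gave 1.2 (adjusted p = 0.769), and 0.62 without that bam1 array. The SnRK2.9 probe had the lowest mean signal of the 10 genes (6.71), and the size of its changes depended on the background correction. With normexp background correction they were 0.60 in Col-0 leaves, 0.33 in bam1 leaves, 0.05 in Col-0 stomata and 0.47 in bam1 stomata.

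In Col-0 stomata SnRK2.2 and SnRK2.3 of subclass III rose, and SnRK2.6 had a negative difference that was not called. SnRK2.2 went from 11.45, 10.77 and 11.32 to 12.11 and 11.75, a rise of 0.75 ± 0.19 (adjusted p = 0.0244). SnRK2.3 went from 11.48, 11.69 and 11.21 to 12.21 and 11.95, a rise of 0.62 ± 0.14 (adjusted p = 0.0147). SnRK2.6 went from 9.80, 8.76 and 9.69 to 8.48 and 8.25, a difference of -1.05 ± 0.39 that did not pass the threshold (adjusted p = 0.118), although no drought array reached a control array. In bam1 stomata SnRK2.3 rose from 11.83 and 11.77 to 12.33 and 12.30, by 0.52 ± 0.15 (adjusted p = 0.0398), which was no longer called without control replicate 2 (0.49, adjusted p = 0.164). SnRK2.2 and SnRK2.6 differed by 0.20 and -0.09 without a call, and the SnRK2.6 value was -0.78 (adjusted p = 0.346) without that array. The SnRK2.6 arrays of bam1 control stomata, 9.43 and 8.04, lay on either side of both drought arrays. In leaves the 3 genes were not called: the change of SnRK2.6 was 0.69 in Col-0 and 0.33 in bam1, that of SnRK2.2 0.06 and 0.03, and that of SnRK2.3 0.19 and 0.11. The Col-0 stomata calls remained without the array labelled replicate 2 of drought (0.93 for SnRK2.2, 0.75 for SnRK2.3 and -0.99 for SnRK2.8, adjusted p = 0.0307, 0.0206 and 0.0477). All 3 were lost without replicate 1 of that group (0.57, 0.49 and -0.92). Replicate 1 was the array whose source name differed from its title, so both drought arrays of Col-0 stomata carried a doubt about their labels.

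**Figure D3:**
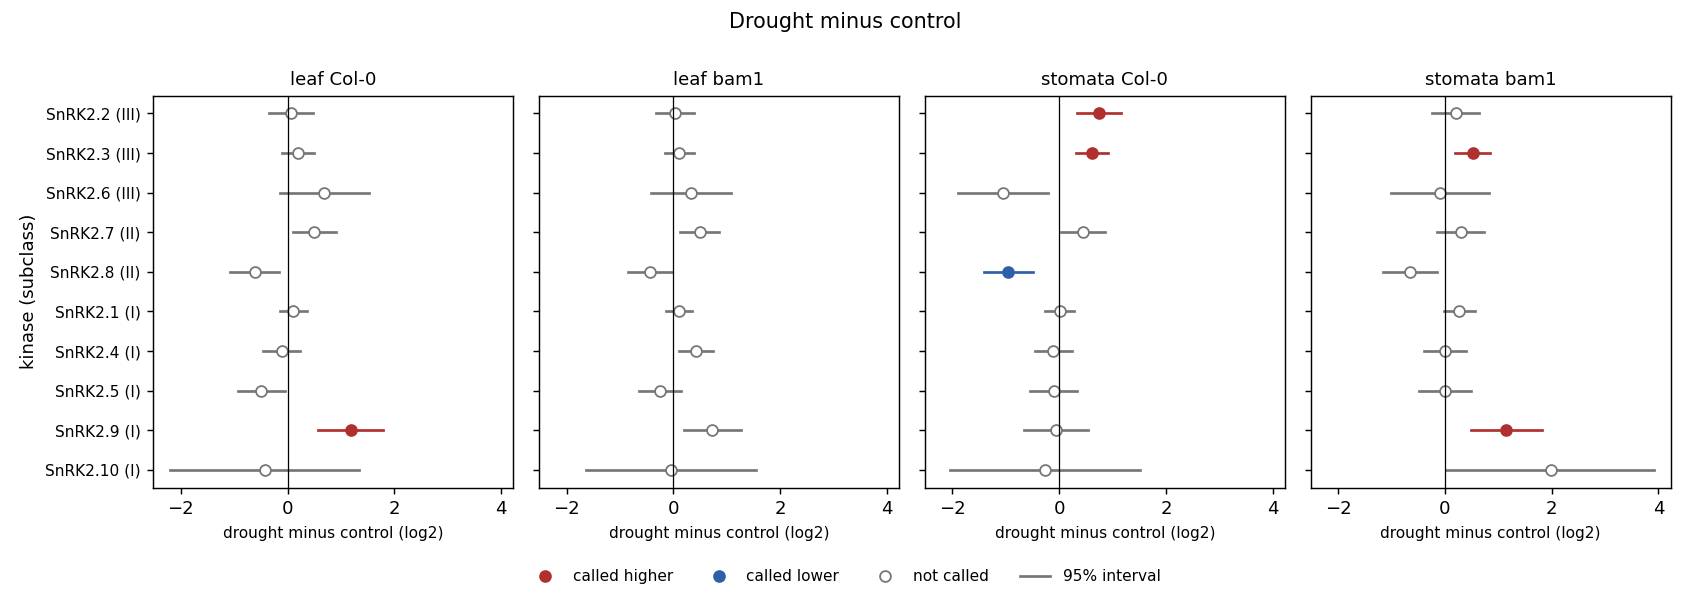
Drought-minus-control log2 change of each SnRK2 gene in the 4 combinations of tissue and genotype, with points for the fitted change and bars for its 95% interval. Filled red and blue points are called higher and lower under drought, open points are not called, and the vertical line is 0. The wide interval of SnRK2.10 comes with the array at 7.75 in stomata bam1 control, and SnRK2.8 lies below 0 in all 4 panels, from -0.95 to -0.43.

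The 2 genes of subclass II kept opposite signs under drought in all 4 comparisons, which use different arrays. SnRK2.8 went from 9.23, 9.60 and 9.56 to 8.71 and 8.98 in Col-0 leaves, and from 9.33, 9.75 and 9.52 to 9.06, 9.15 and 9.08 in bam1 leaves. In stomata it went from 10.97, 11.01 and 11.28 to 10.09 and 10.17 in Col-0, and from 10.24 and 11.06 to 10.21 and 9.80 in bam1. Every drought array lay below every control array of its tissue and genotype. The differences were -0.62 (adjusted p = 0.0704), -0.43 (adjusted p = 0.16), -0.95 ± 0.22 (adjusted p = 0.0141) and -0.65 (adjusted p = 0.088), so the drop was called in Col-0 stomata and not in the other 3. The bam1 stomata value was -0.24 (adjusted p = 0.634) without control replicate 2. The dimmer SnRK2.8 probe gave -0.48, -0.49, -0.79 and -0.67, with the groups likewise apart in all 4, and was called in Col-0 stomata (adjusted p = 0.0234). SnRK2.7 had differences of 0.50, 0.49, 0.45 and 0.30 (adjusted p = 0.0941, 0.074, 0.17 and 0.411), none of them called, with every drought array above every control array of its tissue and genotype. The last of these was 0.19 without stomata bam1 control replicate 2. Among all probes, 4.11% had groups that lay apart and higher under drought in all 4 comparisons, and 4.52% lay apart and lower. The signs of both genes were the same with a 75th percentile shift, with normexp background correction and with the authors' normalised values.

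The remaining subclass I genes were not called under drought. SnRK2.5 in Col-0 leaves differed by -0.49 (adjusted p = 0.139) and SnRK2.4 in bam1 leaves by 0.42 (adjusted p = 0.0751), each with groups that did not overlap. The groups also did not overlap for SnRK2.10 in Col-0 leaves, which differed by -0.43 (adjusted p = 0.786, limma), and for the brighter SnRK2.1 probe in bam1 stomata. The brighter SnRK2.1 probe differed by 0.11, 0.10, 0.01 and 0.27 in Col-0 leaves, bam1 leaves, Col-0 stomata and bam1 stomata, and the other probe by 0.07, -0.05, 0.13 and 0.02. The 1.98 of SnRK2.10 in bam1 stomata became -0.40 without the array at 7.75. Counted over the family, the groups lay apart for 6 of 10 members in Col-0 leaves (47.8% of all probes), 4 in bam1 leaves (35.4%), 5 in Col-0 stomata (41.0%) and 5 in bam1 stomata (51.5%), shares near those of all probes.

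Slides carried unequal sets of groups. With the slide as a block, the drought calls in stomata were lost in both genotypes (0 members each), SnRK2.9 in Col-0 leaves was still called (1.39), and the tissue calls of SnRK2.2, SnRK2.7 and SnRK2.8 remained in all 4 comparisons. No slide held both conditions of stomata from 1 genotype, so no within-slide drought value could be had there.

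The third comparison asked whether the bam1 line changed the kinase transcripts or their response. Limma called 0 members between bam1 and Col-0 in leaf control (background 0.763%), leaf drought (0.564%), stomata control (0.0685%) and stomata drought (0.0196%). At an unadjusted p below 0.05 in limma the counts were 0, 0, 4 and 0. The same limit was met by 2932, 5616, 2614 and 1215 of the 30649 to 30655 probes tested. The methods' t-test called 0 members in each. The 4 in stomata control were SnRK2.2, SnRK2.3, SnRK2.9 and SnRK2.10. For SnRK2.10 the difference was -1.95, and 0.42 without stomata bam1 control replicate 2. The lowest adjusted p values were 0.575, 0.368, 0.219 and 1. In stomata control SnRK2.2 was 11.81 and 11.88 in bam1 against 11.45, 10.77 and 11.32 in Col-0, a difference of 0.67 (adjusted p = 0.267) with no overlap. The share of all probes without overlap in that comparison was not counted. SnRK2.9 differed by -1.08 there (adjusted p = 0.219), and by -0.50 without the array on which it was not above background. The change with drought differed between genotypes for 0 members in leaves (background 0.00979%) and 0 in stomata (0.0163%). At an unadjusted p below 0.05 there was 1 member each, beside 3731 of 30641 and 1687 of 30643 probes. The change differed between stomata and leaves for 0 members in Col-0 (background 2.00%) and 0 in bam1 (0.0718%). Members at an unadjusted p below 0.05 numbered 4 and 0, beside 5713 of 30640 and 2858 of 30642 probes. The SnRK2.6 change in Col-0 was lower in stomata than in leaves by -1.74 ± 0.55 (adjusted p = 0.112), and by -1.63 (adjusted p = 0.201) without the array of contrary BAM1 signal. For SnRK2.9 the same difference was -1.23 (adjusted p = 0.119). Every comparison here that uses stomata includes 1 or both arrays with a BAM1 signal outside the range of its genotype. These were Col-0 drought replicate 2 (7.81) and bam1 control replicate 2 (9.71). Whether these groups mixed genotypes was not tested, so the 0 calls there do not show that bam1 and Col-0 were alike. With 2 arrays in many groups, values that miss the threshold do not show that the responses were alike.

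SnRK2.6 was set beside 18298 genes with a tested probe by Pearson's r over the 20 arrays, as a description, since these arrays share tissue, treatment and slide. The closest were AT3G59660 (r = 0.942), AT4G23950 (r = 0.925) and AT2G32800 (r = 0.924). Within the 9 stomata arrays r was 0.92, 0.95 and 0.93, and within the 11 leaf arrays 0.78, 0.51 and 0.46. For SnRK2.10, which had the widest range of group means (2.5), the closest were GGT4 (r = 0.942), AT1G07080 (r = 0.927) and AT5G15010 (r = 0.925). Over the 19 arrays without the low one r fell to 0.35, 0.47 and 0.16, so that likeness rested on a single array.

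The other genes of the pathway were described by lists, beside the same drought comparisons (Col-0 leaves, bam1 leaves, Col-0 stomata, bam1 stomata). Drought lowered receptor transcripts and raised those of phosphatases and ABF/AREB factors where a change was called. The shares of all probes called in these comparisons were 14.2, 13.5, 8.56 and 12.7%, and the shares of the lists are descriptions. No stomata value of a list gene was refitted without the arrays in doubt. Of 14 PYR/PYL receptors 8 were tested, and 2, 3, 1 and 2 of them (25, 37.5, 12.5 and 25%) were called, all lower, with medians of -0.50, -0.55, -0.61 and -0.54. PYL8 fell by 1.36 ± 0.23 in Col-0 stomata (adjusted p = 0.00306) and by 1.03 ± 0.26 in bam1 stomata, and PYL5 by 1.19 ± 0.32 in Col-0 leaves and 1.13 ± 0.29 in bam1 leaves. PYL4 fell by 1.11 ± 0.25 in Col-0 leaves. Of 9 clade A phosphatases 7 were tested, and 6, 3, 1 and 2 (85.7, 42.9, 14.3 and 28.6%) were called, all higher, with medians of 1.19, 0.30, 0.16 and 0.52. HAI1, a phosphatase that ABA itself induces, rose by 3.72 ± 0.28 in Col-0 leaves (adjusted p = 5.54e-06), 2.5 ± 0.25 in bam1 leaves, 1.46 ± 0.28 in Col-0 stomata and 1.91 ± 0.31 in bam1 stomata.

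**Figure D4:**
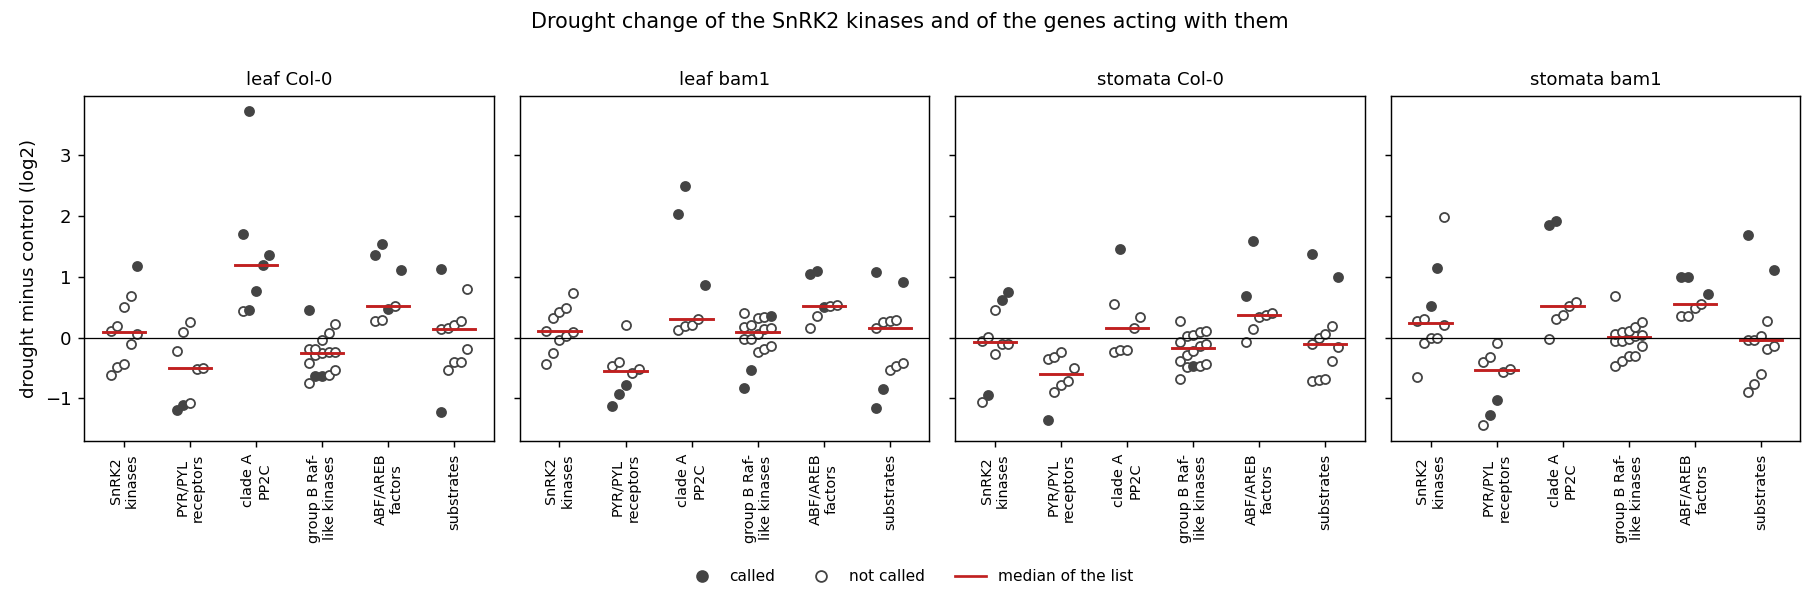
Drought-minus-control log2 change of each tested gene in 6 lists of the SnRK2 pathway. Each comparison has 1 panel (leaves before stomata, Col-0 before bam1), with 1 column of points per list. Filled points are called, open points are not, and the red line is the median of the list. The receptor medians lie between -0.61 and -0.50, and the highest phosphatase point is HAI1 at 3.72 in Col-0 leaves.

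Of 19 Raf-like kinases of group B 16 were tested, and 1, 1, 0 and 0 were called higher and 2, 2, 1 and 0 lower, shares of 18.8, 18.8, 6.25 and 0% beside the 14.2, 13.5, 8.56 and 12.7% of all probes. RAF12 rose by 0.45 ± 0.12 in Col-0 leaves and 0.35 ± 0.11 in bam1 leaves, and RAF3 fell by 0.47 ± 0.14 in Col-0 stomata. Limma called 0 of 16 in bam1 stomata. Below the kinases, 7 of 8 ABF/AREB factors were tested and 4, 3, 2 and 3 (57.1, 42.9, 28.6 and 42.9%) were called, all higher, with medians of 0.52, 0.52, 0.38 and 0.56. ABI5 rose by 1.54 ± 0.17 in Col-0 leaves and 1.58 ± 0.17 in Col-0 stomata (adjusted p = 5.34e-05 and 0.000113), ABF3 by 1.09 ± 0.18 in bam1 leaves, and ABF1 by 0.99 ± 0.15 in bam1 stomata.

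All 11 membrane and other substrates were tested. Under drought 1, 2, 2 and 2 were called higher and 1, 2, 0 and 0 lower (18.2, 36.4, 18.2 and 18.2% in all). AKS1, a transcription factor that promotes stomatal opening until it is phosphorylated, rose by 1.12 ± 0.24 in Col-0 leaves, 0.99 ± 0.24 in Col-0 stomata and 1.69 ± 0.27 in bam1 stomata. KUP6, a potassium transporter, rose by 1.08 ± 0.26 in bam1 leaves and 1.37 ± 0.29 in Col-0 stomata, whereas the aquaporin gene PIP2;1 fell by 1.23 ± 0.26 and 1.15 ± 0.23 in Col-0 and bam1 leaves. Between tissues, 6 of the 11 substrates were called higher in stomata in each of the 4 comparisons, and 1, 3, 0 and 1 lower, with medians of 0.76, 1.17, 1.06 and 1.19. Of the 8 receptors 5, 3, 4 and 3 were called higher and 0, 0, 2 and 2 lower. The shares of all probes called were 53.0, 45.7, 41.3 and 47.3%, against 63.6, 81.8, 54.5 and 63.6% of the substrates and 62.5, 37.5, 75 and 62.5% of the receptors. Of 4 other regulators of SnRK2 proteins, the F-box gene PP2-B11 rose by 0.86 ± 0.19 in bam1 leaves and 1.14 ± 0.24 in bam1 stomata, and BIN2, a GSK3-like kinase of brassinosteroid signalling, fell by 0.48 ± 0.12 in bam1 stomata.

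Output genes of the pathway were described in the same way, and were not tested against the kinases. The shares of all probes called were 14.2, 13.5, 8.56 and 12.7%. Of 10 drought and ABA markers 5, 5, 3 and 4 (50, 50, 30 and 40%) were called higher and 0 lower, with medians of 0.63, 0.80, 0.44 and 0.82. RD29B rose by 3.19 ± 0.46 in Col-0 leaves and 3.24 ± 0.41 in bam1 leaves, HB7 by 1.67 ± 0.28 in Col-0 stomata and 2.33 ± 0.31 in bam1 stomata. A published list of 74 genes with lower expression in an SnRK2 mutant, which the study tabulated for these samples, had 65 tested genes. Of these 33, 27, 19 and 24 were called higher and 0, 2, 3 and 3 lower (50.8, 44.6, 33.8 and 41.5% in all). The medians were 0.91, 0.77, 0.62 and 0.72. That list contains SnRK2.7 and SnRK2.8 themselves, which had opposite signs. Of 33 genes with higher expression in the mutant 23 were tested. Of these 0, 0, 1 and 1 were called higher and 7, 9, 5 and 6 lower (30.4, 39.1, 26.1 and 30.4% in all). The medians of these genes were -0.39, -0.35, -0.24 and -0.46. Both lists were chosen with the results of these samples known and are no independent evidence of a direction.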

How the data were processed

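RNA of leaves and stomata was labelled with a single dye by the submitters and hybridised to Agilent arrays. The deposited scanner files hold, per spot, the intensity that Agilent's software had already background-subtracted and spatially corrected, together with its quality flags, which are scored by the authors' scanner software as other values (0 or 1). The authors also deposited a series matrix of normalised log2 values per probe, used here as an alternative. Per their methods the authors took log2, applied quantile normalisation and median centring, and tested at a 2-fold minimum.

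Here outlying spots were dropped, log2 of the processed signal was quantile-normalised over 20 arrays, and spots of a probe were averaged. limma 3.58.1 in R 4.3.3 fitted 8 group means (12 residual and 2.43 prior degrees of freedom), with Benjamini-Hochberg adjustment over the 30665 of 43603 probes that lay well above background on each array of 1 or more groups. No term for slide or replicate number entered this fit. There were 16 comparisons: drought, tissue and genotype within each combination of the other 2 factors, and 4 interactions. Transcript names were matched to loci through the RefSeq gene table of the TAIR10.1 assembly (34348 probes, 78.8%). Columns belonging to no sample numbered 0. The fit was tested on simulated data. The scanner's mean signal was not used here, so the normexp alternative (offset 50) took median signals. Other alternatives were the 75th percentile shift, 2 other filters on dim probes, the slide and the replicate number as blocks, the compared groups alone, the methods' t-test, the mean over probes and leaving out each array.

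The members and lists were chosen with earlier results of these data known. All members were named, and of each pathway list the highest or lowest called change per drought comparison could be named, apart from 1 that is not reported here. For SnRK2.6 and the member of widest range the 3 most correlated genes were named. A sample title was used where it differed from the source name (stomata Col-0 drought replicate 1). Replicates are separate pools of plants per the study's methods. Scanned depth has no counterpart here, so the number of arrays limits the precision. Figures were drawn with matplotlib 3.10.9.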

Additional observations from a re-analysis of the deposited data

How the results depend on the processing

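Counts below are of the 10 members called. A 2-fold minimum left 0 in drought of Col-0 stomata, 1 in drought of bam1 stomata, and 3 and 1 between tissues in Col-0 drought and bam1 drought. The 75th percentile shift gave 1 in drought of bam1 leaves (SnRK2.9) and 0 in bam1 stomata, and normexp correction 2 in Col-0 leaves (SnRK2.8 and SnRK2.9) and 1 in bam1 stomata (SnRK2.8). Without the filter on dim probes 1 was called in drought of bam1 stomata, and with only probes above background on all arrays, which leaves SnRK2.9 out, 0 in Col-0 leaves and 1 in bam1 stomata. The slide as a block gave 0 in drought of both stomata sets and 3 between tissues in bam1 control and in Col-0 drought. Fitting only the groups compared gave 0 in both stomata drought comparisons, 3 in bam1 control and 4 in Col-0 drought between tissues. The methods' t-test with its 2-fold minimum gave 0 in both stomata drought comparisons, and 2, 3 and 1 between tissues in bam1 control, Col-0 drought and bam1 drought. After Benjamini-Hochberg the methods' t-test gave 0 in drought of Col-0 leaves and of both stomata sets, and 1, 0 and 1 between tissues. The same-numbered arrays did not deviate together (median r = 0.002 over 62 pairs, against -0.009 over 112 pairs of different number), and the replicate block gave 1 member each in drought of bam1 leaves (SnRK2.7) and bam1 stomata (SnRK2.9) and changed no other count by over 1.5 times. Crossing the numbers, an option added after seeing the data because the correlations of the paired arrays were -0.241 and -0.177, gave 2 in drought of bam1 stomata and 0 between genotypes in droughted stomata. Without both arrays in doubt, also added after seeing the data, 0 were called in drought of bam1 stomata and 4 between tissues in Col-0 drought. Leaving out 1 array at a time gave 0 to 1 in drought of Col-0 leaves and of bam1 leaves, and 0 to 3 in each stomata set. Between tissues it gave 6 to 7 in Col-0 control, 4 to 6 in bam1 control and 3 to 6 in Col-0 drought and bam1 drought. Between genotypes in control stomata and for genotype by drought in stomata it gave 0 to 2, for tissue by drought in bam1 0 to 1, and 0 in the others. Where this left 1 array in a group, that array was assumed to vary like the other groups.

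SnRK2.10 turned its sign without the array at 7.75 (stomata bam1 control replicate 2): to 0.06 between tissues in bam1 control, -0.40 for drought in bam1 stomata, 0.42 between genotypes in control stomata, -0.13 for genotype by drought in stomata (-0.30 without both arrays in doubt) and -0.36 for tissue by drought in bam1. Without the other array of that group these 5 values were -4.69, 4.35, -4.33, 4.62 and 4.39. SnRK2.1 turned to -0.09 and -0.03 between tissues in Col-0 and bam1 control when its 2 probes were averaged. The series matrix values, keeping outlying spots, the slide as a random block and the mean over probes left all 16 counts within 1.5 times. The cause of these shifts was not tested, apart from fewer arrays or fewer genes where a setting removes them. Single arrays decided several calls. SnRK2.3 in drought of bam1 stomata was lost without any of its 4 arrays (0.49 to 0.55), SnRK2.2 (0.54) in drought of Col-0 stomata without control replicate 2, and SnRK2.3 (0.49) and SnRK2.8 (-0.85) without control replicate 3. SnRK2.9 was lost in drought of Col-0 leaves without drought replicate 1 (1.07), and in bam1 stomata without either drought array (1.04 and 1.25). Between tissues in bam1 drought, SnRK2.2 (-0.49) and SnRK2.8 (0.70) were lost without stomata drought replicate 1 and SnRK2.1 (0.29) and SnRK2.5 (0.68) without replicate 2, while SnRK2.4 was lost without either of these or without leaf drought replicate 1 or 3 (-0.48 to -0.32). In bam1 control SnRK2.3 was lost without either stomata array or without leaf replicate 2 or 3 (-0.43 to -0.34), SnRK2.10 also without any leaf array (-2.39 to -2.26), and SnRK2.5 gained a call (0.79) without stomata replicate 2. In Col-0 drought SnRK2.3, SnRK2.4 and SnRK2.9 were lost without either leaf array (-0.48 and -0.48, -0.52 and -0.57, -0.81 and -1.01), and SnRK2.5 without replicate 1 of leaf (0.67) or stomata (0.59). The number of arrays, 2 or 3 in a group, limits the precision.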
